A study of Mus musculus with 2 samples.

Results

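Translation initiation factors were followed through spermatogenesis in 10x single-cell RNA-seq of mouse testis. The members are the 56 genes of the features list, out of 31053, whose symbol starts with Eif and a digit from 1 to 6 and is not marked as a pseudogene. They cover eIF1, eIF1A, eIF2, eIF2B, eIF3, the eIF4 groups, eIF5, eIF5A, eIF5B and eIF6. Also among them are the eIF2 kinases and the eIF4E-binding proteins, while Eif2c5 is an old argonaute name that the rule takes in. The samples were 1 library from an Igf2bp1 KO testis and 1 from a wild type (WT) testis, both from mice aged 8 months. The series design text calls the mutant a conditional knockout, but the Cre used and the exons removed were not given in the sources used here. That text counts 2 mice in all without dividing them between the libraries. Igf2bp1 encodes an RNA-binding protein of the IGF2BP family, whose members bind mRNAs and are known for effects on their stability and translation.

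Translation of a capped mRNA starts when eIF4E binds the cap, eIF4G bridges it to the ribosome and the helicase eIF4A unwinds the 5′ leader. The small ribosomal subunit arrives with eIF1, eIF1A, eIF3, eIF5 and the eIF2 complex that carries the initiator tRNA. In the testis, transcription stops as spermatids elongate, many mRNAs are made early and stored, and their translation is delayed. Germ cells are also known to use paralogs of several of these factors.

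The KO library held 17968 barcodes with 98033324 unique molecular identifiers (UMIs), and the WT library held 17362 barcodes with 121257944 UMIs. Levels below are UMIs of a gene summed over the cells of a class, per 1000000 UMIs of that class (CPM), with exact Poisson 95% intervals. With 1 library per genotype no test of genotype is possible, so all intervals cover counting error only and say nothing of the spread between animals. These are 3′ tag counts without any scaling for length, so levels are set side by side across cells and libraries for the same gene. Between paralogs the share of their summed UMIs is followed across classes.

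Cells were clustered again, and clusters were named from marker genes. The classes are spermatogonia-like, early spermatocyte-like, late spermatocyte-like, round spermatid-like, elongating spermatid-like, Sertoli-like and Leydig-like cells, written below without the suffix. Spermatogonia numbered 72 in KO and 114 in WT, late spermatocytes 370 in KO and 1213 in WT. Round spermatids numbered 471 in KO and 1202 in WT, and elongating spermatids 845 in KO and 1661 in WT. Early spermatocytes numbered 29 in KO and 82 in WT, so their levels are given for WT only. Median depth was lower in KO than in WT in each of the germ cell classes used, for example 12330 against 14825 UMIs per cell in elongating spermatids. The libraries differed in composition: 33.3% of kept barcodes in KO and 2.32% in WT fell in clusters of mixed markers, and 46.6% in KO and 67.8% in WT were close in depth and profile to the lowest barcodes. The barcodes of the second kind, called empty-like here, give the level of free RNA. Between the libraries 106 barcode sequences were shared.

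Of the 14 spermatogonial markers, 13 were at least 2-fold above the empty-like level in each library, as were 8 of 12 late spermatocyte markers. For elongating spermatids 9 of 12 markers in KO and 8 of 12 in WT passed that level. None of the 12 round spermatid markers did, in either library. The name of that class therefore rests on the comparison with the other clusters, and differences that involve it are less certain. A floor for free RNA was taken as the 1st percentile, over abundant genes, of a class's level relative to the lowest decile of barcodes. It was 12.7% in KO and 8.08% in WT for late spermatocytes, and 13.1% in KO and 9.54% in WT for elongating spermatids. In round spermatids it was 29.9% in KO and 29.2% in WT. In Sertoli cells it reached 69.8% in KO and 64.8% in WT, so that most of what is counted there is close to the empty-like level.

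Igf2bp1 itself was present in spermatogonia at 26.2 CPM (95% interval 15.0 to 42.6, 16 UMIs) in KO and 69.2 CPM (95% interval 53.7 to 87.7, 68 UMIs) in WT. The KO level was lower and the intervals did not overlap, but transcripts were still counted in the library labelled KO. A 3′ tag outside the deleted exons would not check the label, and those exons are not known here. In elongating spermatids Igf2bp1 stood at 0.599 CPM in KO and 1.09 CPM in WT.

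The initiation factors took 1.16% of all UMIs in KO and 1.15% in WT spermatogonia, and 1.10% in KO and 1.05% in WT late spermatocytes. In round spermatids they took 0.791% in KO and 0.786% in WT, and in elongating spermatids 0.831% in KO and 0.886% in WT. WT early spermatocytes had 1.07%. Their shares of all UMIs were thus higher in spermatogonia and spermatocytes than in spermatids. Protamine and transition protein RNA took 28.9% of UMIs in KO and 30.2% in WT elongating spermatids, against 1.52% in KO and 1.61% in WT spermatogonia. That RNA lowers the share of every other gene in elongating spermatids, and no share without it was drawn up. The order of that class therefore holds for shares of all UMIs only. Of the members with at least 50 UMIs and the same class on top in both libraries, 25 had their highest level in spermatogonia and 16 in late spermatocytes, with early spermatocytes left out of the count. In WT early spermatocytes 7 of the 25 and 1 of the 16 were higher still: Eif2a, Eif2b3, Eif2s3y, Eif3c, Eif4b, Eif4enif1 and Eif5b, and Eif1a. Elongating spermatids were on top for 4 of them, namely Eif1, Eif4e, Eif4e3 and Eif4h.

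**Figure D1:**
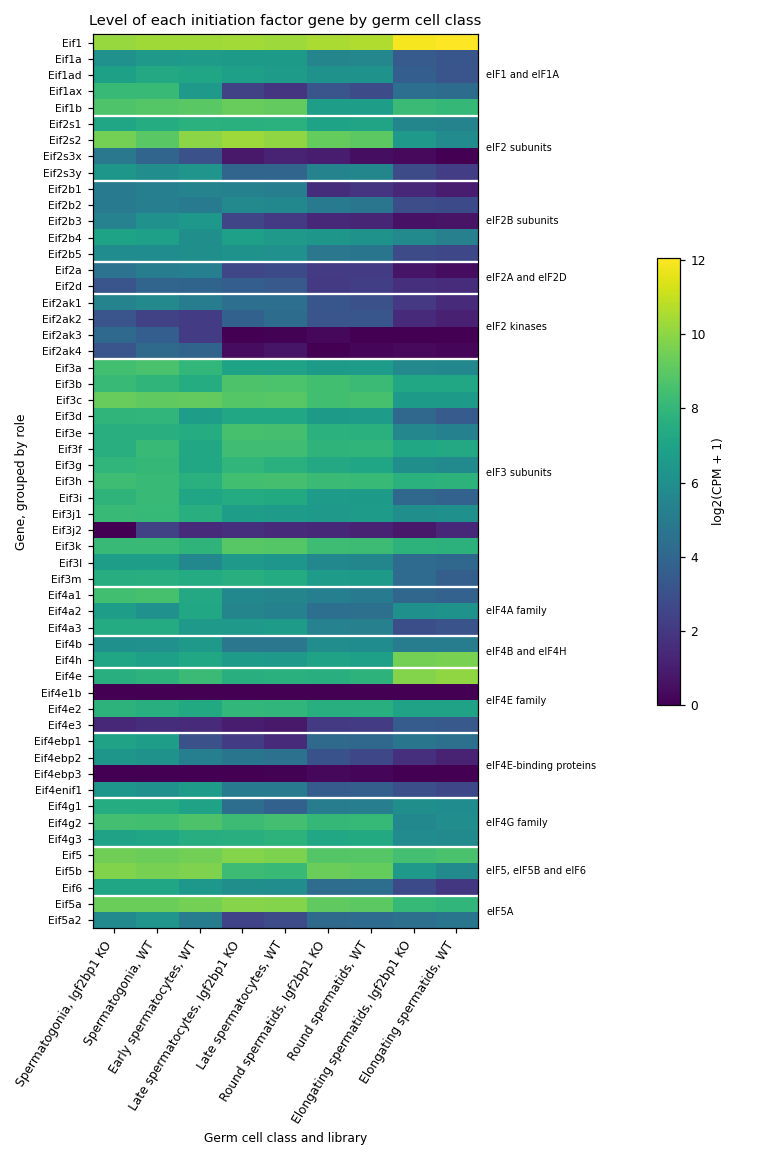
Levels of 55 members (without Eif2c5) by germ cell class as log2(CPM + 1), rows grouped by role, with KO left of WT in each class and early spermatocytes for WT only. Most members are highest in spermatogonia or spermatocytes, and Eif1, Eif4e, Eif4e3 and Eif4h are highest in elongating spermatids.

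Between these classes in order, early spermatocytes left out, a gene was counted as higher or lower within a library when its CPM differed at least 2-fold and the 95% interval of the ratio left out 1, among genes with at least 20 UMIs over both classes. From spermatogonia to late spermatocytes 18 of 49 members were lower in KO, where 33.4% of all genes were, and 18 of 52 in WT, where 35.3% of all genes were. The higher calls were 0 of 49 members in KO against 19.8% of all genes, and 2 of 52 in WT against 18.5%. The 2 in WT were Eif2s2 and Eif2ak2. The lower calls had 17 members in common, Eif4g1, Eif4a1, Eif4b, Eif1ax, Eif5b, Eif4ebp1, Eif4ebp2 and Eif4enif1 among them. How many of all genes were called in both libraries is not given, here or at the later steps. Such overlap is therefore not shown to be particular to the members. The share of members called lower was close to that of all genes, and the share called higher was below it. In KO, the median log2 step was -0.19 over the members and -0.33 over all genes. In WT it was -0.48 over the members and -0.40 over all genes. With scaling by the median of ratios over all genes, 6 members in KO and 8 in WT were higher. The share of all genes that were higher under this scaling is not given.

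From late spermatocytes to round spermatids 6 of 50 members were higher in KO against 27% of all genes, and 8 of 52 in WT against 28.3%. The 6 of KO were all called in WT too: Eif5b, Eif5a2, Eif4e3, Eif4ebp1, Eif4b and Eif2s3y. Lower calls were 13 of 50 in KO against 29.3% of all genes and 15 of 52 in WT against 29.2%, with 12 in common. They held Eif1b, Eif1a, Eif2s2, Eif6 and 3 of 5 eIF2B subunits. None of the 14 eIF3 subunits was called in both libraries in either direction at this step. When each mixed cluster was given its best class, the higher calls were 0 in KO and 4 in WT, and the lower calls 8 in KO.

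From round to elongating spermatids 27 of 50 members were lower in KO against 61.5% of all genes, and 30 of 50 in WT against 67.6%. The 7 members higher in KO, against 8.52% of all genes, were the same 7 as in WT, against 7.94%. They were Eif1, Eif1b, Eif1ax, Eif4e, Eif4e3, Eif4h and Eif4a2. Protamine and transition protein RNA took up 28.9% of UMIs of elongating spermatids in KO and 30.2% in WT, and the median of all genes moved by -1.50 in KO and -1.81 in WT on the log2 scale. Of the lower calls, 8 in KO and 11 in WT, Eif4g3 and Eif4a1 among them in both, were smaller than this shift by point estimate. For some of them the interval held the shift, so they cannot be told from the median gene. In KO these were Eif4g3, Eif4a1, Eif2s1, Eif2ak1 and Eif3l, and in WT Eif2b3 and Eif2b1. The intervals of the others lay above the shift, and these turn to relative increases once it is taken off. With scaling by the median of ratios over all genes, 13 members in KO and 18 in WT were higher, and 8 in KO and 9 in WT lower. The 7 higher calls above keep their direction under this scaling. The shares of all genes called under it are not given, and the shares above are without scaling, so these counts have no background.

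Eif4g1 and Eif4g3 encode the paralogous scaffolds eIF4G1 and eIF4G3 of the cap-binding complex, and Eif4g1 fell into late spermatocytes where Eif4g3 did not. Eif4g1 had 174 CPM (95% interval 142 to 210.3, 106 UMIs) in KO spermatogonia and 178 CPM (95% interval 153 to 206, 175 UMIs) in WT spermatogonia. It stood at 124 CPM in WT early spermatocytes. In late spermatocytes it had 19.8 CPM (95% interval 16.6 to 23.5, 132 UMIs) in KO and 12.4 CPM (95% interval 11.2 to 13.7, 373 UMIs) in WT. Late spermatocytes were thus the lowest class for Eif4g1 in both libraries, with intervals apart from all other classes shown. It then stood at 33.5 CPM in KO and 34.5 CPM in WT round spermatids and at 64.0 CPM in KO and 58.3 CPM in WT elongating spermatids. The step from spermatogonia to late spermatocytes was a log2 change of -3.13 (95% interval -3.51 to -2.75) in KO and -3.84 (95% interval -4.10 to -3.57) in WT.

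Eif4g3 had 123 CPM (95% interval 96.8 to 154, 75 UMIs) in KO spermatogonia and 139 CPM (95% interval 117 to 165, 137 UMIs) in WT spermatogonia. In late spermatocytes it reached 189.6 CPM (95% interval 179 to 200.3, 1261 UMIs) in KO and 219 CPM (95% interval 214 to 225, 6583 UMIs) in WT. That log2 step of 0.62 (95% interval 0.29 to 0.98) in KO and 0.65 (95% interval 0.41 to 0.91) in WT left out 0 but was under the 2-fold rule. With scaling by the median of ratios over all genes it was 1.04 in KO and 1.24 in WT and past the rule in both. The KO interval in late spermatocytes lay below that of WT, a difference under 1.5-fold. Round spermatids had 149.9 CPM in KO and 162 CPM in WT, and elongating spermatids 54.7 CPM in KO and 54.0 CPM in WT.

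The share of Eif4g3 in the summed UMIs of the pair differed more between classes than between the libraries. It was 41.4% (34.2% to 49.0%) in KO and 43.9% (38.3% to 49.6%) in WT spermatogonia, exact Clopper-Pearson intervals in parentheses here and below. It stood at 59.8% in WT early spermatocytes. In late spermatocytes it was 90.5% (88.9% to 92.0%) in KO and 94.6% (94.1% to 95.2%) in WT. Nearly all eIF4G1 or eIF4G3 tags of late spermatocytes were therefore from Eif4g3. Round spermatids followed with 81.8% in KO and 82.4% in WT, and elongating spermatids with 46.1% in KO and 48.1% in WT. In the empty-like barcodes the share was 56.2% in KO and 60.4% in WT.

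The high share of late spermatocytes was seen in each of the 7 sub-clusters, of 8, with at least 20 cells in each library, from 80.9% to 97.5% in KO and from 87.3% to 96.3% in WT. The eighth, with 6 KO and 11 WT cells, was left out. In both libraries the lowest value came from the shallowest sub-cluster, whose median was 4248.5 UMIs per cell in KO and 3311 in WT. The 2 clusters of round spermatids differed from each other. The larger had 87.2% Eif4g3 in KO and 89.5% in WT, and the smaller 56.7% in KO and 64.4% in WT. The smaller one had the higher Eif4g1 level, 70.8 CPM in KO and 66.8 CPM in WT, against 24.1 CPM in KO and 21.0 CPM in WT for the larger.

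Eif4g2 encodes a relative of eIF4G that lacks the eIF4E-binding part and serves cap-independent initiation. It was nearly level through meiosis, at 351 CPM in KO and 335 CPM in WT spermatogonia and 309.8 CPM in KO and 356 CPM in WT late spermatocytes. It stood at 258 CPM in KO and 272 CPM in WT round spermatids, and at 48.3 CPM in KO and 59.8 CPM in WT elongating spermatids. The last step passed the 2-fold rule in both libraries, with log2 changes of -2.42 in KO and -2.18 in WT.

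**Figure D2:**
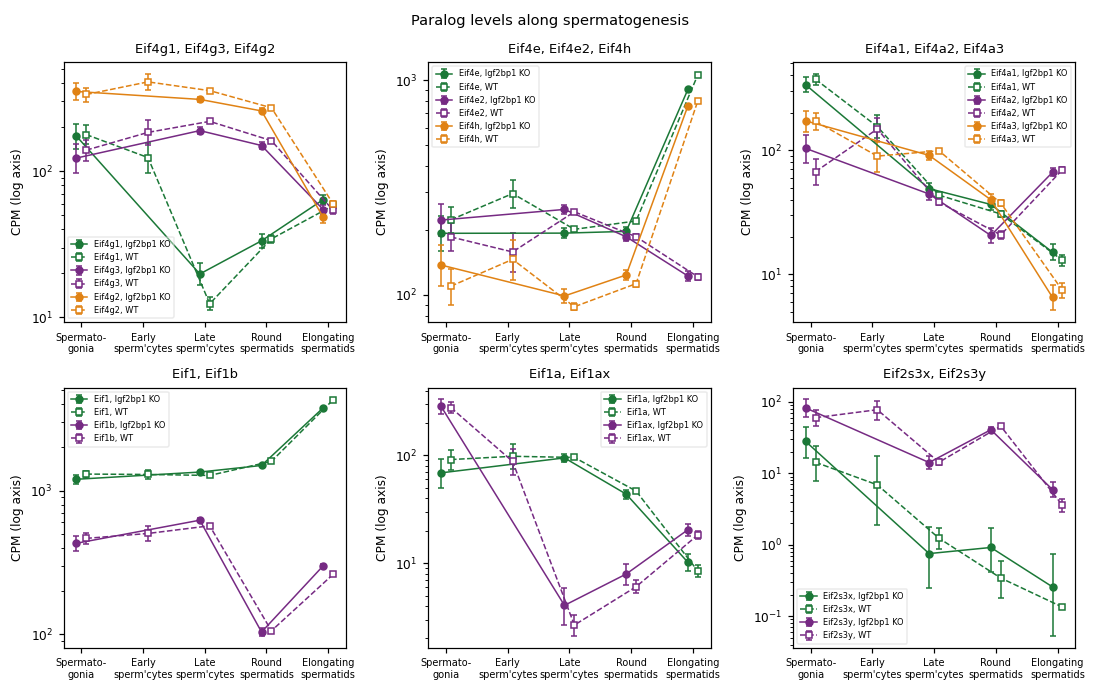
Levels of paralogous factors by germ cell class in CPM on a log axis, with 95% Poisson intervals. Filled circles with solid lines are KO and open squares with dashed lines are WT; Eif2s3x had 0 UMIs in WT elongating spermatids and is drawn there at its upper limit. Eif4g1 dips in late spermatocytes while Eif4g3 does not, and Eif4e and Eif4h rise in elongating spermatids in both libraries.

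The helicases of the eIF4A family also divided by stage. Eif4a1, the main eIF4A of growing cells, had 336 CPM in KO and 372 CPM in WT spermatogonia, and 49.0 CPM in KO and 43.4 CPM in WT late spermatocytes. It went on to 36.5 CPM in KO and 30.6 CPM in WT round spermatids and 15.1 CPM in KO and 12.9 CPM in WT elongating spermatids. Eif4a1 was thus lower in each of these classes than in the one before it, in both libraries. The last of these steps was smaller than the median shift of all genes, though in KO its interval held that shift.

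Eif4a2, its close paralog, had 103 CPM in KO and 67.1 CPM in WT spermatogonia and 148 CPM in WT early spermatocytes. It was at 20.5 CPM in KO and 20.8 CPM in WT round spermatids and at 66.4 CPM in KO and 69.6 CPM in WT elongating spermatids. The last step was a log2 change of 1.69 (95% interval 1.47 to 1.92) in KO and 1.75 (95% interval 1.62 to 1.87) in WT. The share of Eif4a2 in the pair was 23.5% in KO and 15.3% in WT spermatogonia and 47.5% in KO and 46.8% in WT late spermatocytes. It was 81.5% in KO and 84.3% in WT elongating spermatids, where Eif4a2 gave most of the pair's tags.

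Eif4a3, the helicase of the exon junction complex rather than of initiation, was called lower at the last 2 steps in both libraries. It had 172 CPM in KO and 171 CPM in WT spermatogonia, 90.8 CPM in KO and 98.9 CPM in WT late spermatocytes, and 6.50 CPM in KO and 7.41 CPM in WT elongating spermatids. Part of the 3′ end of Eif4a2 (11.1% of 75-base words) and of Eif4a3 (15.9%) also occurs in transcripts of other genes, so some of their reads could be split or lost.

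Eif4e encodes the cap-binding protein itself. It had 194 CPM in KO and 224 CPM in WT spermatogonia, 194 CPM in KO and 202 CPM in WT late spermatocytes and 198 CPM in KO and 221 CPM in WT round spermatids. In elongating spermatids it reached 905 CPM (95% interval 888 to 923, 10585 UMIs) in KO and 1057 CPM (95% interval 1045 to 1069, 29094 UMIs) in WT. The last step was a log2 change with a 95% interval from 2.13 to 2.27 in KO and from 2.22 to 2.30 in WT, and every earlier class lay below.

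Eif4e2 encodes a cap-binding relative known for repressing translation, and its CPM did not share this rise. It was at 186 CPM in KO and 187 CPM in WT round spermatids and at 122 CPM in KO and 121 CPM in WT elongating spermatids, a decrease smaller than the median shift of all genes. Its share of the 2 genes' UMIs was 48.6% in KO and 45.8% in WT round spermatids and 11.9% in KO and 10.3% in WT elongating spermatids. Eif4e3 was scarce but rose at the same step, to 10.4 CPM in KO and 9.41 CPM in WT elongating spermatids, against 3.15 CPM in KO and 3.34 CPM in WT round spermatids. Eif4e1b, known as the oocyte form, had 0 UMIs in KO and 0 in WT elongating spermatids.

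The eIF4E-binding proteins hold eIF4E back from eIF4G when they are not phosphorylated. Eif4ebp1 had 125 CPM in KO and 104 CPM in WT spermatogonia and was very low in late spermatocytes, with 3.46 CPM (95% interval 2.19 to 5.19, 23 UMIs) in KO and 1.80 CPM (95% interval 1.35 to 2.35, 54 UMIs) in WT. It was at 17.1 CPM in KO and 15.3 CPM in WT round spermatids and at 24.9 CPM in KO and 20.9 CPM in WT elongating spermatids. The return in round spermatids passed the 2-fold rule in both libraries, with log2 steps of 2.30 in KO and 3.09 in WT.

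Eif4ebp2 had no such return. It had 83.6 CPM in KO and 70.2 CPM in WT spermatogonia, 24.5 CPM in KO and 22.7 CPM in WT late spermatocytes and 2.05 CPM in KO and 1.31 CPM in WT elongating spermatids. The share of Eif4ebp1 in the pair was 12.4% in KO and 7.34% in WT late spermatocytes, and 92.4% in KO and 94.1% in WT elongating spermatids. Eif4ebp3 had 2 UMIs in KO and 5 in WT round spermatids, and its whole 3′ end is shared with another annotated gene.

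**Figure D3:**
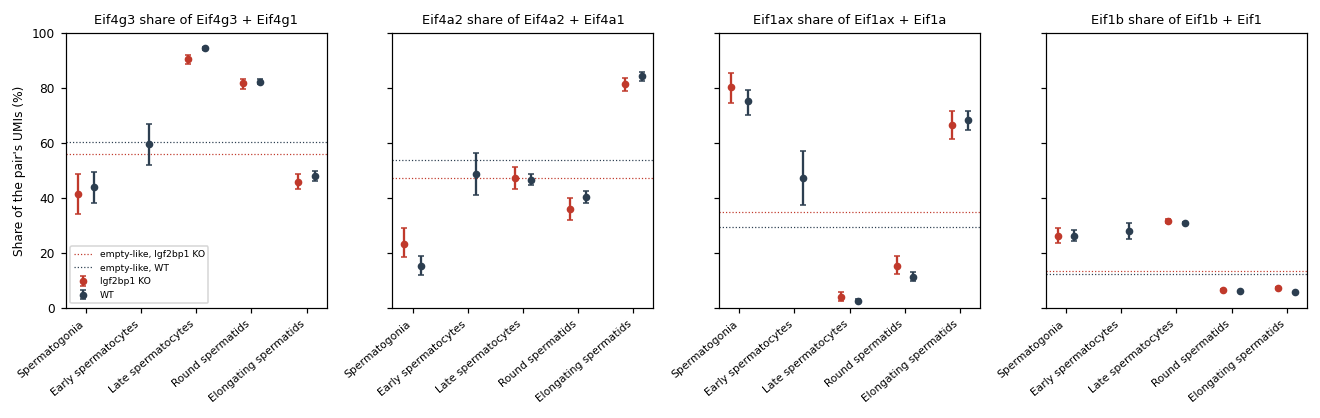
Share of 1 paralog in the summed UMIs of a pair by germ cell class, in percent, with exact 95% intervals. Red points are KO, dark points are WT and dotted lines are the empty-like barcodes of each library. The Eif4g3 share peaks in late spermatocytes at 90.5% in KO and 94.6% in WT, and the Eif4a2 share in elongating spermatids at 81.5% in KO and 84.3% in WT.

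Eif4b and Eif4h encode related RNA-binding partners of eIF4A, and they parted at the end of the series. Eif4h had 138 CPM in KO and 109.9 CPM in WT spermatogonia, 98.9 CPM in KO and 88.1 CPM in WT late spermatocytes and 124 CPM in KO and 113 CPM in WT round spermatids. In elongating spermatids it reached 758 CPM (95% interval 743 to 774, 8866 UMIs) in KO and 799 CPM (95% interval 789 to 809.7, 21997 UMIs) in WT. That was the largest rise of any member at this step, with log2 changes of 2.61 in KO and 2.82 in WT. Eif4b had 59.5 CPM in KO and 57.4 CPM in WT round spermatids and 34.0 CPM in KO and 33.8 CPM in WT elongating spermatids, a decrease under the 2-fold rule and smaller than the median shift of all genes.

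Promoters of 6 genes with different stage patterns are shown to set these sequences beside their levels. The genes were picked by hand and not by the width of their range. Eif4g1 and Eif4a1 were low in late spermatocytes, and Eif1ax is on the X chromosome. Eif4a2, Eif1 and Eif4h rose in elongating spermatids. Eif4g3 is not shown because no exon-free bases were found in its window. The bases are a stretch that overlaps no annotated exon, within the 250 before the RefSeq start. They are from RefSeq on GRCm38.p6, written 5′ to 3′ on the gene's strand. Stretches shorter than 250 bases, those of Eif4g1, Eif4a2, Eif1 and Eif4h, need not reach the RefSeq start. The Eif4g1 stretch ends about 4410 bases inside the gene as GENCODE annotates it, where other transcripts start upstream. The other 5 stretches end at the GENCODE gene start. Capitals mark matches on either strand to TGACG (core of the cAMP response element), CCAAT (the CCAAT box), GGGCGG (the GC box) or TATAAA (the TATA box). TGACG is also part of TGACGTCA, the whole response element, and overlapping matches were each counted.
Eif4g1 (chr16:20672477-20672722, plus strand): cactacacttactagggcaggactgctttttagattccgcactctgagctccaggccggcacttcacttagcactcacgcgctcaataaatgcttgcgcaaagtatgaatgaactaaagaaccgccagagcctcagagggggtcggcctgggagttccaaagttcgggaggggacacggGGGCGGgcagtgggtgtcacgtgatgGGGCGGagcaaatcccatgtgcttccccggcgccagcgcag
Eif4a1 (chr11:69672424-69672673, minus strand): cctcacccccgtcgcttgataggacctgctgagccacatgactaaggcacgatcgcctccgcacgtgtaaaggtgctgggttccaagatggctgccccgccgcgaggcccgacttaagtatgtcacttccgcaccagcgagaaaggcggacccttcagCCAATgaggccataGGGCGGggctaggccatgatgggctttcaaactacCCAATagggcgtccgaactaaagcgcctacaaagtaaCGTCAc
Eif1ax (chrX:159371928-159372177, plus strand): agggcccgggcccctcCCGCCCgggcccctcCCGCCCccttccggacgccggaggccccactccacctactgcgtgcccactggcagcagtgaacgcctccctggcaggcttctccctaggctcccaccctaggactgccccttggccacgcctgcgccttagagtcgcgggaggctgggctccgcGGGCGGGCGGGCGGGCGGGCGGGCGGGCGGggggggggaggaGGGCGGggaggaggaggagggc
Eif4a2 (chr16:23107218-23107443, plus strand): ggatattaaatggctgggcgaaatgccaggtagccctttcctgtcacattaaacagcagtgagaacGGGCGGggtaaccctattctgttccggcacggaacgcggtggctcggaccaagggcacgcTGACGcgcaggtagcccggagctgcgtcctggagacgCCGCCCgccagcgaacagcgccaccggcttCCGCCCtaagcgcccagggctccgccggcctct
Eif1 (chr11:100319699-100319884, plus strand): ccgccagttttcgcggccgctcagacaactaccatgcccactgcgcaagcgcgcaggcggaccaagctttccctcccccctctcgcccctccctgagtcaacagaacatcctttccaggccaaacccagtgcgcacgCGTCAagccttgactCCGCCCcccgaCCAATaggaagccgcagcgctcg
Eif4h (chr5:134639491-134639659, minus strand): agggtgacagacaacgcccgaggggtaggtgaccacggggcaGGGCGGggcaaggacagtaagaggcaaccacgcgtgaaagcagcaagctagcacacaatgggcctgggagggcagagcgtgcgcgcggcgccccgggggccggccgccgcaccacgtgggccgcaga

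The Eif1ax promoter held 10 matches to GGGCGG, most of them in 1 overlapping run, and had 78.8% G or C. Those of Eif4a1 and Eif1 held CCAAT together with TGACG, and none of the 6 held TATAAA. Promoter entries run from 250 bases before to 50 after the start, and only the 250 bases before it were searched. Of the 56 members 44 had entries, 57 in all because some had several, and the shares below are over entries. GGGCGG was in 66.7% of their promoters and in 32.7% of all 32851 promoters of the table. TGACG was in 47.4% of the members' promoters and in 17.8% of all, while the full TGACGTCA was in none of theirs and in 1.55% of all. CCAAT was in 24.6% of the members' promoters and 33.8% of all, and TATAAA in 7.02% of theirs and 12.4% of all. The members' promoters had a median of 61.2% G or C and all promoters 52.4%, a difference in base composition that these shares of matches move with; its part in them was not tested.

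Eif1 encodes the factor that keeps the scanning ribosome from starting at the wrong codon. It had 1199 CPM in KO and 1303 CPM in WT spermatogonia, 1496 CPM in KO and 1598 CPM in WT round spermatids, and 3775 CPM in KO and 4291 CPM in WT elongating spermatids. The last step was a log2 change of 1.34 (95% interval 1.31 to 1.36) in KO and 1.43 (95% interval 1.41 to 1.44) in WT. Eif1b, its paralog, had another course. It was at 622 CPM in KO and 568 CPM in WT late spermatocytes, 104 CPM in KO and 106 CPM in WT round spermatids, and 299.9 CPM in KO and 261 CPM in WT elongating spermatids. Eif1b thus dipped in round spermatids where Eif1 did not, and its share of the pair was 31.6% in KO and 30.8% in WT late spermatocytes and 6.47% in KO and 6.20% in WT round spermatids. Of the 3′ words of Eif1, 19.0% occur in other genes too.

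eIF1A is encoded by Eif1ax on the X chromosome and by the autosomal Eif1a. X-linked genes are known to be silenced in male meiosis. Eif1ax had 285 CPM (95% interval 245 to 331, 174 UMIs) in KO spermatogonia and 278 CPM (95% interval 246 to 313, 273 UMIs) in WT spermatogonia. It was at 87.8 CPM in WT early spermatocytes and at 4.06 CPM in KO and 2.66 CPM in WT late spermatocytes. Its range over germ cell classes in WT, 6.25 on the log2(CPM + 1) scale, was the widest of the members with at least 50 UMIs. It had 7.93 CPM in KO and 6.04 CPM in WT round spermatids, and 20.4 CPM in KO and 18.3 CPM in WT elongating spermatids.

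Eif1a, the autosomal gene, took another course, with 68.9 CPM in KO and 91.5 CPM in WT spermatogonia, 94.9 CPM in KO and 95.7 CPM in WT late spermatocytes, and 10.2 CPM in KO and 8.46 CPM in WT elongating spermatids. The share of Eif1ax in the pair was 80.6% (74.6% to 85.6%) in KO and 75.2% (70.4% to 79.6%) in WT spermatogonia. In late spermatocytes it was 4.10% (2.72% to 5.91%) in KO and 2.71% (2.15% to 3.36%) in WT. In elongating spermatids it was 66.8% in KO and 68.3% in WT.

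eIF2 is a trimer that brings the initiator tRNA, and its gamma subunit is encoded by Eif2s3x on X and Eif2s3y on Y. Eif2s3y had 82.0 CPM in KO and 60.0 CPM in WT spermatogonia, 14.1 CPM in KO and 14.3 CPM in WT late spermatocytes, 40.7 CPM in KO and 45.7 CPM in WT round spermatids and 5.90 CPM in KO and 3.56 CPM in WT elongating spermatids. It fell into late spermatocytes and returned in round spermatids in both libraries. Eif2s3x was scarce in every germ cell class, with 17 UMIs in KO and 14 in WT spermatogonia. It had 3 UMIs in KO and 0 in WT elongating spermatids, where 3 counts would be 0.109 CPM. Its 3′ end shares 41.6% of words with Gm2223, so reads of it may have been lost. The share of Eif2s3y in the pair was 74.6% in KO and 80.8% in WT spermatogonia, and 94.9% in KO and 92.1% in WT late spermatocytes.

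Eif2s2, the beta subunit, had 735 CPM in KO and 507 CPM in WT spermatogonia, 1269 CPM in KO and 1064 CPM in WT late spermatocytes, 587 CPM in KO and 522 CPM in WT round spermatids and 92.8 CPM in KO and 55.1 CPM in WT elongating spermatids. Eif2s1, the alpha subunit whose phosphorylation slows initiation, kept a flatter course of 138 CPM in KO and 175 CPM in WT spermatogonia, 199.6 CPM in KO and 209.7 CPM in WT late spermatocytes, and 45.1 CPM in KO and 41.7 CPM in WT elongating spermatids.

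eIF2B reloads eIF2 with GTP. Of its 5 subunit genes, Eif2b4 was at 126 CPM in KO and 113 CPM in WT spermatogonia and 53.1 CPM in KO and 37.1 CPM in WT elongating spermatids. Eif2b1 and Eif2b3 fell steeply but at different steps. Eif2b1 had 37.9 CPM in KO and 34.8 CPM in WT late spermatocytes and 2.03 CPM in KO and 2.54 CPM in WT round spermatids. Eif2b3 had 39.4 CPM in KO and 68.1 CPM in WT spermatogonia, 84.4 CPM in WT early spermatocytes, and 4.81 CPM in KO and 3.16 CPM in WT late spermatocytes. The largest falls of these subunits of 1 complex thus lay on either side of the late spermatocyte class. Eif2b3 was also called lower at both later steps in both libraries. Its log2 changes were -1.66 in KO and -1.12 in WT into round spermatids, and -1.57 in KO and -1.42 in WT into elongating spermatids. The last of these in WT was smaller than the median shift of all genes, though its interval held that shift.

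Of the 4 eIF2 kinases, Eif2ak1 (heme-regulated) had 41.0 CPM in KO and 50.9 CPM in WT spermatogonia and 8.34 CPM in KO and 7.07 CPM in WT round spermatids. Eif2ak2 (PKR, activated by double-stranded RNA) was highest in late spermatocytes, with 12.6 CPM in KO and 18.2 CPM in WT there, against 8.20 CPM in KO and 4.07 CPM in WT spermatogonia. Eif2ak3 (PERK, of the endoplasmic reticulum) had 10 UMIs in KO and 11 in WT spermatogonia, but 0 in KO and 2 in WT late spermatocytes. Eif2ak4 (GCN2, activated by uncharged tRNA) stood at 8.20 CPM in KO and 17.3 CPM in WT spermatogonia and 0.301 CPM in KO and 0.599 CPM in WT late spermatocytes. Eif2a, an alternative carrier of initiator tRNA, had 23.0 CPM in KO and 33.6 CPM in WT spermatogonia and 0.599 CPM in KO and 0.327 CPM in WT elongating spermatids.

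eIF3 is the largest initiation factor and holds mRNA and the small subunit together. Its 14 genes summed to 3499.9 CPM in KO and 3594 CPM in WT spermatogonia, 3497 CPM in KO and 3406 CPM in WT late spermatocytes, 2411 CPM in KO and 2378 CPM in WT round spermatids and 1112 CPM in KO and 1094 CPM in WT elongating spermatids. Eif3c had 612 CPM in KO and 560.4 CPM in WT spermatogonia and 95.3 CPM in KO and 94.2 CPM in WT elongating spermatids. Eif3a, the large scaffold subunit, had 341 CPM in KO and 383 CPM in WT spermatogonia, and 127 CPM in KO and 124 CPM in WT late spermatocytes. It was 1 of 2 eIF3 genes, of 13 with enough UMIs, called lower at that step in both libraries, with Eif3j1 as the other.

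The subunits parted in elongating spermatids, where 8 of 14 were called lower than in round spermatids in both libraries. Lower calls were common at this step, at 61.5% of all genes in KO and 67.6% in WT. Of the 8, Eif3b, Eif3g and Eif3l fell by less than the median shift of all genes by point estimate. For Eif3l in KO the interval of the log2 change, -1.72 to -1.24, held the shift of -1.5, so it cannot be told from the median gene. With the shift taken off, Eif3b and Eif3g in both libraries and Eif3l in WT were relative increases. Eif3k was still at 223 CPM in KO and 218 CPM in WT, Eif3h at 211 CPM in KO and 225 CPM in WT and Eif3f at 148 CPM in KO and 156 CPM in WT elongating spermatids. Eif3d, the subunit that can bind a cap itself, was at 15.1 CPM in KO and 10.2 CPM in WT, and Eif3i at 16.1 CPM in KO and 12.7 CPM in WT elongating spermatids. In round spermatids Eif3k was at 323 CPM in KO and 311 CPM in WT, Eif3d at 93.2 CPM in KO and 97.2 CPM in WT and Eif3i at 97.3 CPM in KO and 95.7 CPM in WT. The low level of Eif3d and Eif3i was thus reached at that last step. Eif3j1 had 280.5 CPM in KO and 273 CPM in WT spermatogonia and 109 CPM in KO and 97.1 CPM in WT late spermatocytes. Its paralog Eif3j2 was scarce, and 82.4% of the 3′ words of Eif3j2 also occur in Eif3j1. Eif3j2 gave 1.90% of the pair's UMIs in KO and 1.82% in WT late spermatocytes, a share that such read sharing makes uncertain.

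**Figure D4:**
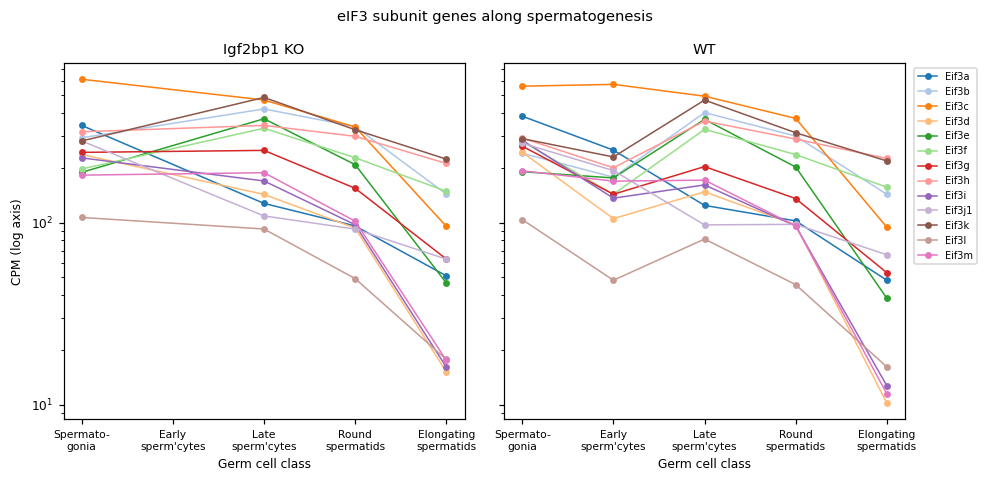
Levels of 13 eIF3 subunit genes (without Eif3j2) by germ cell class in CPM on a log axis, KO panel left of the WT panel. Into elongating spermatids Eif3k and Eif3h fall by less than 2-fold, and Eif3d, Eif3i and Eif3m by more, in both libraries.

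Eif5 encodes the GTPase-activating partner of eIF2, and Eif5b the factor that joins the ribosomal subunits. Eif5 was at 899 CPM in KO and 821 CPM in WT late spermatocytes and 357 CPM in KO and 387 CPM in WT elongating spermatids. Eif5b had 873 CPM in KO and 771 CPM in WT spermatogonia, 305 CPM in KO and 292 CPM in WT late spermatocytes, 665 CPM in KO and 597 CPM in WT round spermatids, and 87.5 CPM in KO and 51.9 CPM in WT elongating spermatids. It thus dipped in late spermatocytes and returned before it fell again. Eif6, which keeps the large subunit from joining, fell along the whole series, with 136 CPM in KO and 142 CPM in WT spermatogonia, 62.8 CPM in KO and 58.8 CPM in WT late spermatocytes and 5.65 CPM in KO and 2.83 CPM in WT elongating spermatids.

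eIF5A, which carries hypusine and aids elongation, has a ubiquitous gene, Eif5a, and a paralog, Eif5a2. Eif5a was at 658 CPM in KO and 663 CPM in WT spermatogonia, 944 CPM in KO and 913 CPM in WT late spermatocytes and 268 CPM in KO and 243 CPM in WT elongating spermatids. Eif5a2 had 54.1 CPM in KO and 77.3 CPM in WT spermatogonia, 4.36 CPM in KO and 5.73 CPM in WT late spermatocytes, and 20.7 CPM in KO and 24.5 CPM in WT elongating spermatids. Its share of the pair was 7.60% in KO and 10.4% in WT spermatogonia, and 0.460% in KO and 0.624% in WT late spermatocytes. Eif2c5 had 5 UMIs in KO and 3 in WT spermatogonia.

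KO and WT cells of the same class were close for most members. A gene was called when its CPM differed at least 1.5-fold between the libraries and the exact conditional binomial 95% interval of the ratio left out 1. In round spermatids none of 51 members was called, against 4.35% of all genes called higher in KO and 1.9% called lower. Of the 51, 46 lay within 20% of equality, and log2 ratios ran from -0.32 to 1.42. The highest of them had an interval that did not leave out 1. In late spermatocytes 2 of 52 were called higher in KO against 5.21% of all genes, and 0 were called lower against 2.77%. In spermatogonia 1 of 49 was called higher in KO against 3.38% of all genes, and 1 lower against 3.07%. The median log2 ratio of KO over WT was -0.03 over the members and -0.00 over all genes in spermatogonia, 0.07 and 0.03 in late spermatocytes, and 0.02 and 0.00 in round spermatids. In these 3 classes members called were thus no more frequent than genes in general.

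In spermatogonia Eif4a2 was the higher one, with 103 CPM in KO (63 UMIs) and 67.1 CPM in WT (66 UMIs), a log2 ratio of 0.62 (95% interval 0.10 to 1.14). Without the cell with most UMIs of Eif4a2 the log2 ratio was 0.40 and no longer called. Eif2b3 was lower, with 39.4 CPM in KO (24 UMIs) and 68.1 CPM in WT (67 UMIs), a log2 ratio of -0.79 (95% interval -1.53 to -0.10). Both rest on these few UMIs from 72 KO and 114 WT cells. The libraries divided unevenly among the 4 sub-clusters, 1 of which held 6 of the KO and 35 of the WT cells. Without it the log2 ratio was 0.57 (95% interval -0.00 to 1.15) for Eif4a2 and -0.49 (95% interval -1.30 to 0.29) for Eif2b3, and neither was called.

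In late spermatocytes the members called were Eif4g1 and Eif4ebp1, both of which had their own lowest level there. Eif4g1 differed by a log2 ratio of 0.68 (95% interval 0.38 to 0.97), with the levels given above, and was higher in KO in 6 of the 7 sub-clusters with at least 20 cells in each library. Eif4ebp1 differed by 0.94 (95% interval 0.17 to 1.67). Both lay near the free RNA floor: Eif4g1 was at 15.6% in KO and 12.5% in WT of its level in the lowest barcodes, and Eif4ebp1 at 20.9% in KO and 9.54% in WT. The free RNA of 1 such barcode per cell would give Eif4g1 9.18 CPM in KO and 3.87 CPM in WT. With this taken off the log2 ratio of Eif4g1 was 0.37 and no longer called, as was 0.42 with sub-clusters weighted equally, and that of Eif4ebp1 was 1.13 and still called. The shallowest sub-cluster held 114 of 370 KO cells and 103 of 1213 WT cells, and the spermatid genes Tnp2 and H2al2a were among its leading genes. It gave 35 of the 132 Eif4g1 UMIs in KO and 22 of the 373 in WT. Without it the log2 ratio was 0.46 (95% interval 0.12 to 0.79) for Eif4g1 and 0.73 (95% interval -0.16 to 1.55) for Eif4ebp1, and neither was called.

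In elongating spermatids 6 of 49 members were called higher in KO, where 13.3% of all genes were. These were Eif5b, Eif2s2, Eif3m, Eif6, Eif2ak1 and Eif2s3y. The lower calls were 1 of 49, Eif3j2, against 0.581% of all genes. The median log2 ratio was 0.15 over the members and 0.24 over all genes, so the median gene of the class was higher in KO too. Eif5b had 87.5 CPM in KO and 51.9 CPM in WT, a log2 ratio of 0.75 (95% interval 0.64 to 0.87). Eif2s2 had 92.8 CPM in KO and 55.1 CPM in WT, a log2 ratio of 0.75 (95% interval 0.64 to 0.87). Eif6 had 5.65 CPM in KO and 2.83 CPM in WT, a log2 ratio of 0.99 (95% interval 0.50 to 1.49). Eif5b (1023 UMIs in KO, 1430 in WT) and Eif2s2 (1085 in KO, 1516 in WT) rest on the most UMIs of these 3, so their intervals are the narrowest.

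The other 3 differed by log2 ratios of 0.61 (95% interval 0.35 to 0.87) for Eif3m, 0.72 (95% interval 0.05 to 1.37) for Eif2ak1 and 0.73 (95% interval 0.26 to 1.19) for Eif2s3y. Eif3j2, which shares its 3′ end with Eif3j1, differed by -1.05 on 9 UMIs in KO and 44 in WT. These levels too were near the free RNA floor, at 14.4% in KO and 9.64% in WT of the lowest barcodes for Eif5b, and 15.6% in KO and 10.2% in WT for Eif2s2. With free RNA taken off, Eif5b, Eif2s2, Eif6 and Eif2ak1 were still called, and Eif3m, Eif2s3y and Eif3j2 were not. With scaling by the median of ratios over all genes, which takes off 0.24 on the log2 scale, 2 members were called in this class, Eif6 and Eif3j2. Eif1, Eif4e and Eif4h, which peak in elongating spermatids, were not called, and the levels given above lay within 1.5-fold between the libraries.

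**Figure D5:**
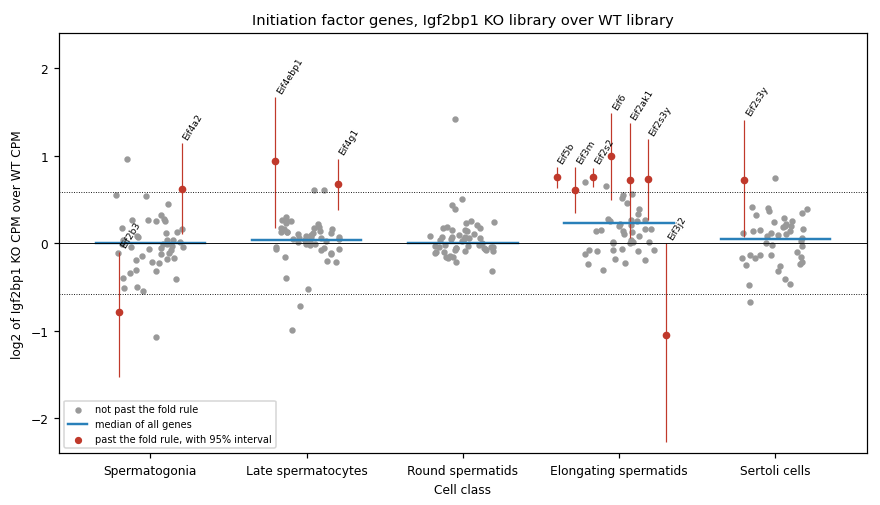
Log2 ratio of KO over WT CPM for each member by class. Members past the 1.5-fold rule are in red with exact 95% intervals, the others are grey, the blue line is the median of all genes and dotted lines mark 1.5-fold. The points lie close to the blue line in spermatocytes and round spermatids, and the line itself is above 0 in elongating spermatids.

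The other genes of translation were followed from a list of 45, with the log2 ratio of KO over WT given in parentheses for those called. In elongating spermatids Eef2k (1.10), 1 of 9 tested for elongation and termination, Ddx3x (3.74) and Pdcd4 (0.71), 2 of 12 for other initiation factors, and Akt1 (1.43), 1 of 9 for signalling, were higher in KO. The Ddx3x value rests on 17 UMIs in KO and 3 in WT, with a 95% interval from 1.95 to 6.15. Eef2k had 21 UMIs in KO and 23 in WT, and Akt1 had 16 in KO and 14 in WT. With the 0.24 of all genes taken off, Pdcd4 (0.48) and Eef2k (0.87, 95% interval -0.06 to 1.79) were no longer called. None of 5 stress response genes was called there. In round spermatids Ddx3x (2.03), a helicase that acts on 5′ leaders, Tsc2 (1.11) and Ppp1r15a (1.35) were higher in KO, 1 each of 12, 9 and 7 tested in their lists. They rest on few UMIs, 24 in KO and 21 in WT for Ddx3x and 20 in KO and 33 in WT for Tsc2. Ppp1r15a had 10 in KO and 14 in WT, with a 95% interval from 0.02 to 2.62. In late spermatocytes Ddx3y (2.05) was higher and Mknk1 (-0.71), a kinase of eIF4E, was lower in KO. Ddx3y had 11 UMIs in KO and 12 in WT, with a 95% interval from 0.73 to 3.36, and Mknk1 had 51 in KO and 376 in WT. Values with free RNA taken off were not drawn up for the genes of this list. In spermatogonia Paip2b (0.69) and Atf4 (0.89) were higher and Eef1e1 (-0.86) was lower in KO. The shares of all genes called are those given for each class.

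Outside the germ line, Sertoli cells numbered 920 in KO and 765 in WT. In them 1 of 45 members, Eif2s3y, was called higher in KO against 3.4% of all genes, and 0 lower against 2.51%. Eif2s3y had 37.3 CPM in KO and 22.6 CPM in WT, a log2 ratio of 0.73 (95% interval 0.07 to 1.41). It was 92.0% of the tags of its pair in KO and 96.6% in WT. In the empty-like barcodes Eif2s3y had 41.8 CPM in KO and 37.0 CPM in WT. With cells taken by their own marker level instead of by cluster, the log2 ratio was -0.06. Mknk2, another eIF4E kinase and 1 of 5 signalling genes tested, was also called higher in KO, with 23 UMIs in KO and 5 in WT and a log2 ratio of 1.63 (95% interval 0.20 to 3.38).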

How the data were processed

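Single-cell suspensions of testis were profiled on a 10x Genomics chip. The deposited matrices list raw UMI counts for each gene in each barcode. The submitters' processing notes name Cell Ranger 2.2.0, STAR and mm10, and the matrix headers name software version 3.1.0. The treatment of reads that match several genes was not given in the sources used here.

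Barcodes with at least 500 UMIs, 250 genes and at most 20% mitochondrial UMIs were kept (17703 in KO, 17002 in WT). Counts were scaled to 10000 per cell, and 1998 variable genes without members, 30 components and 15 neighbours gave 22 Leiden clusters at resolution 1 (scanpy 1.11.5, leidenalg 0.10.2, igraph 0.11.9, scikit-learn 1.9.0). Clusters were named from a list of markers, with limits set after the clusters had been seen, and haemoglobin genes were left out. The cluster with spermatogonia and early spermatocytes was split further. No doublet caller was run, so doublets may be among the cells; clusters with markers of several classes were left unnamed. Clusters named from markers may differ from those of the study.

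Raw counts were summed per class and library, given as CPM with exact 95% Poisson intervals. Ratios have exact conditional binomial intervals (scipy 1.17.1, numpy 2.4.6) and were tested on simulated data. Classes needed 50 cells in each library for ratios and 30 in a library for levels, and genes needed 20 UMIs. Intervals cover counting error only. TMM factors were from edgeR 4.0.16 in R 4.3.3. Ends of transcripts were compared by 75-base words of the last 500 bases over 55 members, of which 10 shared more than 10% with another gene. Besides those named above, they were Eif4e (12.05%), Eif2s2 (15.1%), Eif3e (23.5%) and Eif3m (28.95%), so some of their reads too could be split or lost. All 56 gene IDs matched the mouse annotation.

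The members and gene lists were chosen with earlier results of these data known. Named with values are the members of fixed paralog sets, those past the 1.5-fold rule, the 10 of widest range over WT germ cell classes with at least 50 UMIs, and the highest and lowest gene of eIF2, eIF2B and eIF3 by CPM, a choice that ranks no levels between genes; others named were chosen after their values were seen. Alternatives changed the way cells were classed, the barcode filter, free RNA, scaling, the UMI minimum and the fold.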

Additional observations from a re-analysis of the deposited data

How the results depend on the processing

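No paired analysis was possible because each genotype has 1 library. The stage calls under other settings were chosen after seeing the data. Counts of called members in KO over WT moved as follows. With cells classed by their own markers they were 5 in spermatogonia, 2 in round spermatids and 5 in Sertoli cells. With mixed clusters named they were 3 in round spermatids and 2 in Sertoli cells. The stricter barcode filter gave 1 in spermatogonia and 0 in Sertoli cells, and clustering with the members 1 in spermatogonia and 1 in round spermatids. With free RNA taken off they were 4 in spermatogonia and 13 in Sertoli cells. In elongating spermatids median-of-ratios scaling gave 2, TMM 3 and a 2-fold rule 1, and the 2-fold rule gave 0 in spermatogonia, late spermatocytes and Sertoli cells. The shares of all genes called under these settings are not given. The counts therefore do not show whether members moved more than genes in general. The cause of these moves was not tested. The ratio of Eif2s3y in Sertoli cells reversed to -0.0645 with cells classed by their own markers. Of the alternatives for single called members, 75 kept the call, 39 lost it and 1 reversed. Among settings chosen after seeing the data, leaving out the most unevenly divided sub-cluster gave 1 called member in spermatogonia, Eif2s3x, and leaving out the shallowest gave 3 in late spermatocytes, Eif5a2, Eif2b3 and Eif2ak2, none of them called with all sub-clusters.

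The Eif4g3 share was 80.2% in KO and 91.8% in WT late spermatocytes with mixed clusters named, and 94.3% in KO and 96.1% in WT with free RNA taken off. With clusters weighted equally it was 93.7% in WT late spermatocytes, and 73.0% in KO and 77.3% in WT round spermatids. With cells classed by their own markers it was 57.0% in WT spermatogonia, and 67.5% in KO and 75.8% in WT round spermatids. With free RNA taken off it was 84.5% in KO round spermatids, and 42.7% in KO and 45.2% in WT elongating spermatids. In all of these settings late spermatocytes had the highest share in both libraries, though only just in KO with mixed clusters named, where round spermatids had 80.1%.

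Members called higher in late spermatocytes than in spermatogonia numbered 1 in KO with cells classed by their own markers, with clustering on the members, and with free RNA taken off. With mixed clusters named there was 1 in WT. Median-of-ratios scaling gave 6 in KO and 8 in WT. From late spermatocytes to round spermatids, mixed clusters named gave 0 higher in KO and 4 in WT and 8 lower in KO, and median-of-ratios scaling 8 lower in KO. From round to elongating spermatids median-of-ratios scaling gave 13 higher in KO and 18 in WT, and 8 lower in KO and 9 in WT. Shares of all genes called at these steps under the same settings are not given. Depth limits Eif4e1b, Eif4ebp3, Eif2c5, Eif2ak3 and Eif2ak4 most, with 0 to 63 UMIs over germ cell classes.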

Other observations

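B lymphocytes were found in the KO library, with 354 cells, and not in the WT library, where 0 of 17002 kept barcodes were named so. T or NK lymphocytes numbered 117 in KO and 4 in WT, and Leydig cells 381 in KO and 46 in WT, so these classes allow no ratio. In KO Leydig cells Eif1ax was at 90.0 CPM and Eif1a at 52.3 CPM, and in WT Leydig cells Eif1ax was at 66.2 CPM and Eif1a at 60.6 CPM. The Eif2s3y share of its pair was 50.4% in KO and 47.8% in WT Leydig cells, against 97.8% in KO and 99.3% in WT round spermatids. Leydig cells thus had a lower Eif2s3y share than the germ cell class named. Free RNA by protamine transcripts was 45.1% of that in the lowest decile of barcodes in KO and 55.4% in WT Leydig cells, 116.5% in KO B lymphocytes and 65.8% in KO T or NK lymphocytes.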
